A study of Mus musculus with 6 samples.

Results

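The genes of DNA replication and mitosis were followed in the articular cartilage of mice with a gene knockout (KO) and of wildtype mice. They are 39 rows of a table of 34709 genes, found by their gene symbol: 16 genes of replication and of the step from G1 to S phase, and 23 genes of mitosis. RNA was sequenced from 3 KO libraries and 3 wildtype libraries. The mice were males of 18 months. By the study's methods the KO line, on the C57BL/6J background, was bought from a supplier, and the wildtype mice were littermates. No Cre driver is named, nor any pooling of animals. The labels name no agent for either group. The study followed the proliferation marker KI67 by staining of the knee joint. The comparison of KO with wildtype asks whether the transcripts of dividing cells differed in the RNA of the same tissue at the same age.

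A cell commits to division in G1, when cyclin D and then cyclin E kinases release the E2F factors from the retinoblastoma proteins, and E2F then switches on the replication genes. Origins are licensed by loading the MCM2 to MCM7 helicase, DNA is copied in S phase, and later a second set of genes, driven by the MuvB complex with B-MYB and FOXM1, builds the spindle and drives mitosis. Chondrocytes of adult articular cartilage rarely divide, whereas the erythroid, granulocytic and B lymphoid precursors of bone marrow divide all the time.

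The 6 libraries held between 52268311 and 63331135 counts. KO replicates 2 and 3 differed from each other by 5.67 to 6.11 times the variance expected from counting, depending on the count range, and the 14 other pairs of libraries differed by 13.1 to 604 times. These replicates were therefore averaged and counted as 1 sample, which left 2 KO and 3 wildtype samples. The study's methods state that experiments used independent samples, but the labels do not tie the libraries to animals, so the p-values measure the spread between these samples. The labelled tissue was checked against marker genes. Transcripts of cartilage were present, with Acan, the large proteoglycan of cartilage, at 13.2 to 22.8 FPKM (fragments scaled to transcript length and to the library's total) and Col2a1, its main collagen, at 12.4 to 21.3 FPKM. Transcripts of blood and marrow cells were far more abundant: Hbb-bs, an adult globin, lay between 9546 and 45390 FPKM, and S100a9, a neutrophil protein, between 11640 and 27820 FPKM. Of these blood and marrow cells, all 8 markers of granulocyte precursors, all 13 of B cell precursors and 13 of 14 of erythroid cells were found in the table. None of these markers was at 0 in all libraries. In RNA from a whole tissue, fewer cells of a type and less RNA per cell cannot be told apart.

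All 39 genes passed the filter on low values, which asked for 0.5 FPKM or more on average in the 6 libraries, as did 15373 genes in all. Their mean levels ran from 5.85 FPKM for Cenpf, a kinetochore protein, to 295.9 FPKM for Hmgb2, a chromatin protein that is abundant in dividing cells. The median gene of the set had 30.4 FPKM, against 4.90 FPKM over all tested genes, and 20 of the 39 genes lay above the 90th percentile of expression. After Hmgb2 came Pcna (155 FPKM), the sliding clamp of the replication fork, Stmn1 (121 FPKM), which destabilises microtubules, and Mki67 (91.1 FPKM), which coats mitotic chromosomes. The lowest replication gene was E2f1, the transcription factor, at 10.2 FPKM. Each value rested on at least 1687 counts in each library. Summed over the 16 replication genes, the KO libraries had 570.5, 603 and 608.5 FPKM and the wildtype libraries 604, 628 and 716 FPKM. Over the 23 mitosis genes the sums were 1096, 1198 and 1200 FPKM in KO, against 1046, 1089 and 1179 FPKM in wildtype. The 2 groups overlapped in both sums.

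**Figure D1:**
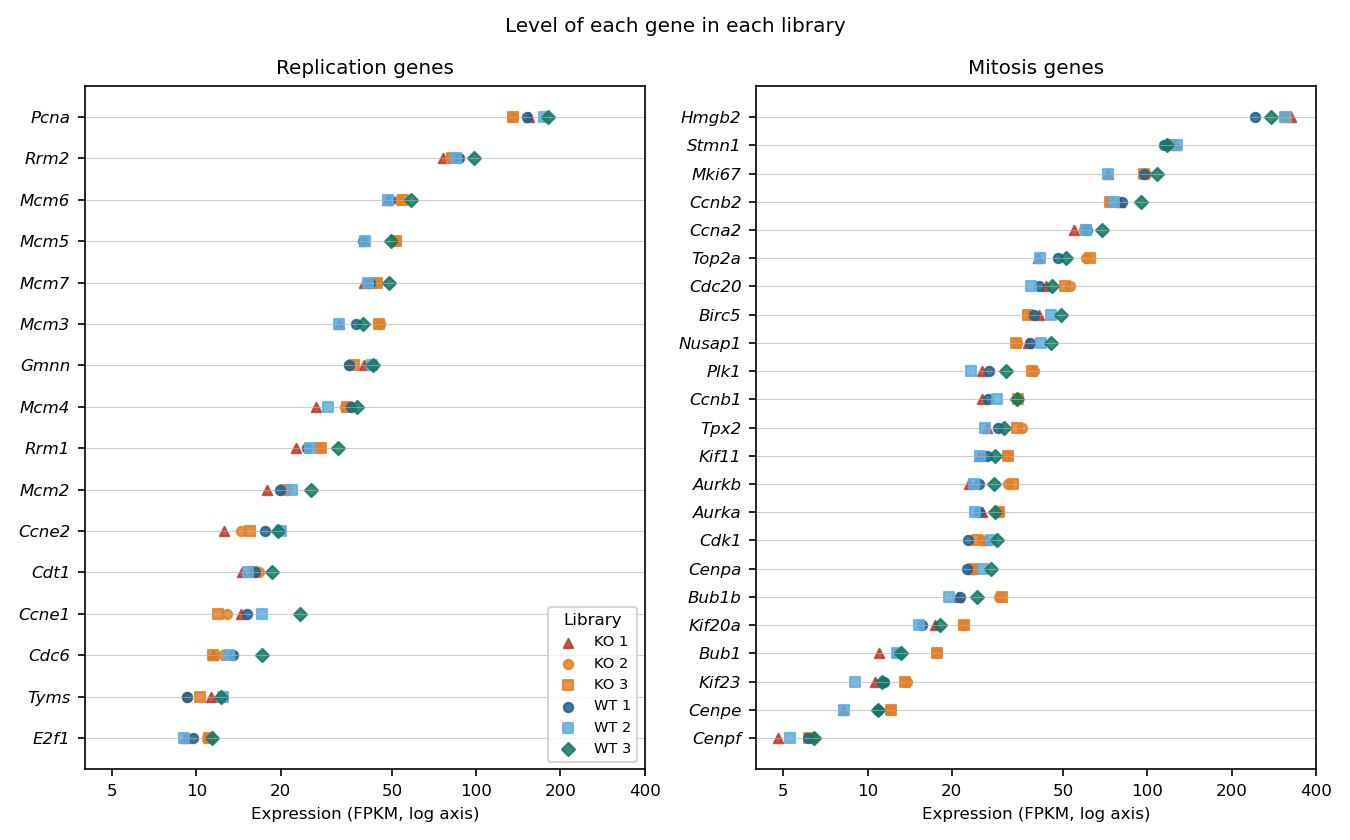
Level of each gene in FPKM (log axis), with 1 point for each of 3 KO and 3 wildtype libraries, for replication genes (left) and mitosis genes (right), ordered by mean level. Levels ran from about 5 FPKM for Cenpf to about 300 FPKM for Hmgb2. Wildtype replicate 3 (green diamonds) was the highest library in 12 of 16 replication genes, a count not taken over all tested genes.

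The replication and mitosis genes also differed in the sequence before their start sites. RefSeq promoter windows (GRCm38.p6, 250 bases before to 50 after the start of transcription) were at hand for 31 of the 39 genes, all but Aurkb, Ccna2, Ccne2, Gmnn, Kif20a, Mcm4, Stmn1 and Tpx2. They were searched on both strands for the CCAAT box, which binds NF-Y, for TTTGAA, the cell cycle genes homology region (CHR) bound by MuvB complexes, and for an E2F site written as TTTCCCGC, TTTCGCGC, TTTGCCGC or TTTGGCGC. A CCAAT box was present in 16 of 18 mitosis genes (88.9%) and in 8 of 13 replication genes (61.5%), against 41.1% of all 27025 genes with a window. The CHR letters were present in 13 of 18 mitosis genes (72.2%) and in 1 of 13 replication genes (7.69%), Mcm2, against 20.2% of all genes. The E2F letters stood in 6 of 13 replication genes (46.2%) and in 1 of 18 mitosis genes (5.56%), Cdk1, against 2.61% of all genes. Some E2F matches overlapped on the opposite strands and were counted at both. A match is a description of these letters and not a site. Below are 200 bases, from 170 before to 30 after the start, of 3 mitosis promoters with a CCAAT box and a CHR and of 3 replication promoters with an E2F match, written 5′ to 3′ on the strand of the gene. The windows are chr9:70421525-70421724 (Ccnb2, minus strand), chr9:61946770-61946969 (Kif23, minus), chr4:118437314-118437513 (Cdc20, minus), chr8:75109339-75109538 (Mcm5, plus), chr1:128359676-128359875 (Mcm6, minus) and chr11:98907981-98908180 (Cdc6, plus). Capitals mark the CCAAT box or its complement ATTGG and the CHR in the first 3, the E2F match and the CCAAT box in Mcm5 and Mcm6, and the E2F match in Cdc6.
Ccnb2: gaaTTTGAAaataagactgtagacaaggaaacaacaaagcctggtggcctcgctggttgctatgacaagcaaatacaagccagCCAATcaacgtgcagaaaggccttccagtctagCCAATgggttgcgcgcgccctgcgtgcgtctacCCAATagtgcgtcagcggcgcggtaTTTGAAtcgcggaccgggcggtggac
Kif23: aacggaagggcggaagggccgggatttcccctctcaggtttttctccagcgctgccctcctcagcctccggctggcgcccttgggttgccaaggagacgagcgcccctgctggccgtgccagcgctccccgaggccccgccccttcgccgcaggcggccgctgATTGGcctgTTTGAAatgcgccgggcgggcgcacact
Cdc20: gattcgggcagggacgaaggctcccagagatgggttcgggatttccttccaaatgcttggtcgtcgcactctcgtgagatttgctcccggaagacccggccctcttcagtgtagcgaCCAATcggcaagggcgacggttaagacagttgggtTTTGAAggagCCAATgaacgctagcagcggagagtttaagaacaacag
Mcm5: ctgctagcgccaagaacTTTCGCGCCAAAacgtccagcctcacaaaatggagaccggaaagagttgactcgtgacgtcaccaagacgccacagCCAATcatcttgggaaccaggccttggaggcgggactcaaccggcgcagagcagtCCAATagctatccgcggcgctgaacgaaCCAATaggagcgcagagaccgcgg
Mcm6: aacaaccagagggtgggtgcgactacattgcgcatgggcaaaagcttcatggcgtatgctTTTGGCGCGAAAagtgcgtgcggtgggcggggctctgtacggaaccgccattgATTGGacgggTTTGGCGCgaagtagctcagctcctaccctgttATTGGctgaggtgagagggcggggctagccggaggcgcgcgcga
Cdc6: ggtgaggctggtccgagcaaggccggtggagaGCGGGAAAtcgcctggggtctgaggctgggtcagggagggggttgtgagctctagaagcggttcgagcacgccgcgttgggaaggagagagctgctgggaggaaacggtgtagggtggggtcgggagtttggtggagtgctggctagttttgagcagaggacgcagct

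**Figure D2:**
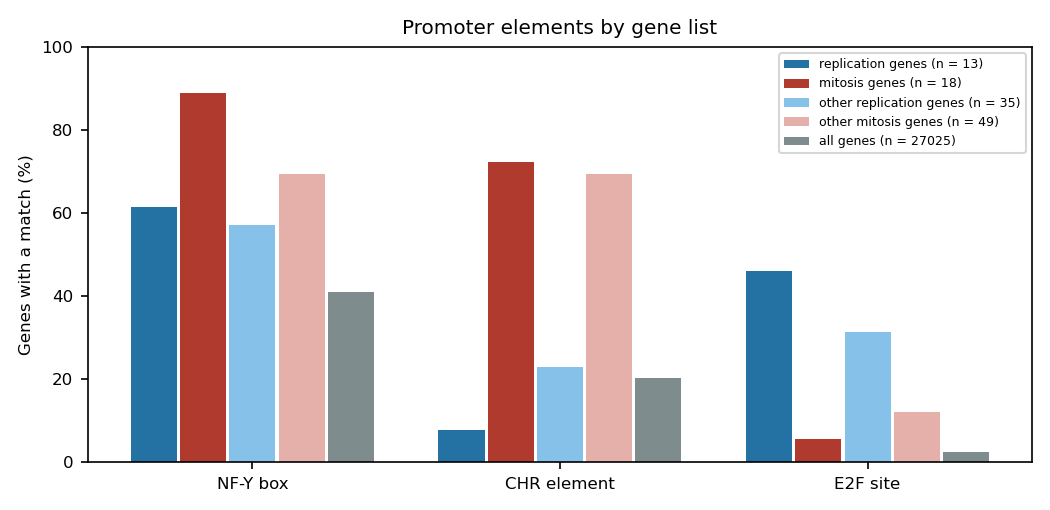
Share of genes (percent) with at least 1 match of each promoter element, for the replication and mitosis genes, for other genes of the same processes and for all genes, with the number of genes in the key. The CHR bar was 72.2% for mitosis genes and 7.69% for replication genes, and the E2F bar was 5.56% and 46.2%.

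No replication gene passed the test between KO and wildtype. By edgeR (quasi-likelihood F test, p adjusted after Benjamini and Hochberg over 15373 genes), 0 genes in the whole table (0.0%) had an adjusted p under 0.05, and 2106 (13.7%) had an unadjusted p under 0.05. Of the 16 replication genes, 1 was at that unadjusted level (Ccne2), and the lowest adjusted p among them was 0.228. KO levels were lower for 13 and higher for 3 of them. Their median log2 difference, KO minus wildtype, was -0.10, against -0.016 over all tested genes, of which 47.5% were higher in KO. DESeq2 called 880 of the 15373 genes, and 0 of these 16 replication and 23 mitosis genes. Limma called 0 genes in the whole table, so it could call none of them.

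The cyclin E genes had the largest differences. Ccne2 (chromosome 4, 11191351 to 11204779, GRCm38) encodes cyclin E2, which with CDK2 starts S phase. Its level was 12.6, 14.4 and 15.5 FPKM in KO replicates 1 to 3 and 17.6, 20.1 and 19.6 FPKM in wildtype replicates 1 to 3. Each KO library was below each wildtype library. The log2 difference was -0.46 (SE 0.138, n = 2 and 3, edgeR adjusted p = 0.228), or 0.729 times the wildtype level, with a 95% interval from -0.78 to -0.13. Ccne1 (chromosome 7, 38097984 to 38107534), its close relative cyclin E1, stood at 14.4, 12.9 and 12.0 FPKM in KO and at 15.2, 17.2 and 23.4 FPKM in wildtype. The KO values lay below the wildtype values here as well in FPKM, though not in TMM-scaled CPM (counts divided by the library's total and by edgeR's TMM scaling factor), where the groups overlapped. The log2 difference was -0.45 (SE 0.216, n = 2 and 3, edgeR adjusted p = 0.435), and much of the wildtype spread came from replicate 3. Ccne2 overlaps Ints8 on the opposite strand, the libraries were made to keep strand, and whether the counting used it is not given in the sources used here. E2f1 differed by 0.02 (SE 0.149) and was level in both groups, between 9.01 and 11.3 FPKM.

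Among the licensing genes, Cdc6, which helps load the MCM helicase and carries an E2F match in the stretch shown above, had 11.5, 12.5 and 11.5 FPKM in KO and 13.6, 13.1 and 17.1 FPKM in wildtype. All KO libraries were below all wildtype libraries, and the log2 difference was -0.29 (SE 0.149, n = 2 and 3, edgeR adjusted p = 0.466). Cdt1, its partner in loading, and Gmnn, which inhibits CDT1, differed by -0.10 and -0.06. Of the 6 helicase subunits, Mcm3 (0.10) and Mcm5 (0.10) were higher and Mcm2 (-0.19), Mcm4 (-0.15), Mcm6 (-0.01) and Mcm7 (-0.06) lower in KO, with a median of -0.03. Mcm2 had 17.9, 21.2 and 20.8 FPKM in KO and 19.9, 21.9 and 25.7 FPKM in wildtype, an overlap of the groups (SE 0.153, n = 2 and 3, edgeR adjusted p = 0.670). The SEs of the 6 subunits ran from 0.137 to 0.161, and each interval included 0. Mcm6 changed sign under several of the alternatives tried.

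The remaining replication genes were Rrm1, Rrm2, Tyms and Pcna. Rrm2, the regulated subunit of ribonucleotide reductase, had 75.9, 80.6 and 81.8 FPKM in KO and 86.9, 84.7 and 98.4 FPKM in wildtype. The groups did not overlap, and the log2 difference was -0.18 (SE 0.136, n = 2 and 3, edgeR adjusted p = 0.661). Rrm1, the large subunit, differed by -0.11, Tyms, which makes thymidylate, by -0.08, and Pcna by -0.21, all with overlapping groups. In TMM-scaled CPM, 3 of the 16 replication genes (Cdc6, Rrm2 and Ccne2) had every KO library below every wildtype library, as did 13.0% of all tested genes, and 0 had them above, as did 13.7%. Wildtype replicate 3 was the highest library for 12 of the 16 genes, a count not taken over all tested genes. Without this library the median difference was -0.02.

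Mki67 (chromosome 7, 135689784 to 135716361), the transcript of KI67, did not separate the groups. It had 72.3, 99.1 and 97.3 FPKM in KO replicates 1 to 3 and 97.3, 72.6 and 108 FPKM in wildtype replicates 1 to 3. KO replicate 1 and wildtype replicate 2 were both low and the other libraries high. The log2 difference was -0.10 (SE 0.230, n = 2 and 3, edgeR adjusted p = 0.920), with a 95% interval from -0.64 to 0.44. By staining, the study reported more KI67 protein in the chondrocytes of KO mice. The values here are RNA of a whole tissue rich in marrow transcripts, so they do not measure that protein in chondrocytes.

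No other mitosis gene passed the test either, with a lowest adjusted p of 0.425 (edgeR). KO levels were higher for 15 and lower for 8 of the 23 genes, the median log2 difference was 0.09, and 0 genes had an unadjusted p under 0.05, against 13.7% of all genes. Kif20a, a kinesin of the central spindle, had the lowest p. Its level was 17.4, 21.9 and 22.0 FPKM in KO and 15.6, 15.2 and 18.1 FPKM in wildtype. KO replicates 2 and 3 were above all wildtype libraries, and KO replicate 1 was within their range in FPKM. The log2 difference was 0.29 (SE 0.135, n = 2 and 3, edgeR adjusted p = 0.425). Kif23, another kinesin of the central spindle, had 10.6, 13.9 and 13.6 FPKM in KO and 11.4, 8.98 and 11.3 FPKM in wildtype. Its groups overlapped through KO replicate 1, and the log2 difference was 0.22 (SE 0.144, n = 2 and 3, edgeR adjusted p = 0.588). Kif11, the motor that pushes spindle poles apart, differed by 0.09.

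Cdc20, Bub1b and Plk1 were the other mitosis genes with the lowest p. Cdc20, which activates the anaphase-promoting complex, had 43.4, 52.7 and 50.9 FPKM in KO and 41.1, 38.5 and 45.7 FPKM in wildtype (log2 difference 0.20, SE 0.125, n = 2 and 3, edgeR adjusted p = 0.557). Bub1b, a checkpoint kinase relative that restrains CDC20, had 21.1, 29.4 and 30.3 FPKM in KO and 21.4, 19.5 and 24.6 FPKM in wildtype (log2 difference 0.23, SE 0.161, n = 2 and 3, edgeR adjusted p = 0.616). For both, KO replicates 2 and 3 were above the wildtype range in FPKM and KO replicate 1 was inside it. Plk1, the polo-like kinase of mitotic entry, had 25.6, 39.3 and 38.8 FPKM in KO and 27.2, 23.4 and 31.3 FPKM in wildtype (log2 difference 0.26, SE 0.185, n = 2 and 3, edgeR adjusted p = 0.634). Here too KO replicate 1 lay within the wildtype range and the other KO libraries above it. Bub1, the checkpoint kinase, differed by 0.15, and the Aurora kinases Aurka and Aurkb by 0.11 and 0.12.

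The remaining mitosis genes lay on both sides of 0. The engine of mitosis, Cdk1 with its cyclins, differed by -0.02 for Cdk1, 0.02 for Ccnb1, -0.11 for Ccnb2 and -0.12 for Ccna2. Of the centromere and kinetochore genes, Cenpa differed by -0.08, Cenpe by 0.03 and Cenpf by -0.09. Birc5, a subunit of the chromosomal passenger complex, was at -0.15 and Nusap1, a spindle protein, at -0.20, the lowest value of the list. Tpx2, which activates Aurora A, was at 0.11, Top2a, which untangles DNA, at 0.13, Hmgb2 at 0.22 and Stmn1 at 0.07. In TMM-scaled CPM, Kif20a and Cdc20 had every KO library above every wildtype library, and Ccna2 had them below, against 13.7% and 13.0% of all genes. In FPKM, KO replicate 1 was within the wildtype range for Kif20a and Cdc20, and KO replicate 3 was within it for Ccna2. Ccna2, Cdc20, Kif20a, Mcm7 and Nusap1 overlap a protein-coding gene on the opposite strand. Of the copies of these genes in the table, Pcna-ps2 reached 7.05 FPKM and those of Tyms, Ccnb1 and Ccnb2 at most 2.33 FPKM.

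The intervals, which are not adjusted for the number of genes, show how precise these values were. The 95% interval of the log2 difference lay inside -1 to 1, that is within a 2-fold change, for all 39 genes. It did so for 10604 of all 15373 tested genes, whose median level was lower. Among the 39 genes the lowest bound was -0.95 (Ccne1) and the highest 0.71 (Hmgb2). The median interval reached 0.35 to either side of its value. 1 interval, that of Ccne2, did not include 0, against 2106 of all 15373 tested genes.

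**Figure D3:**
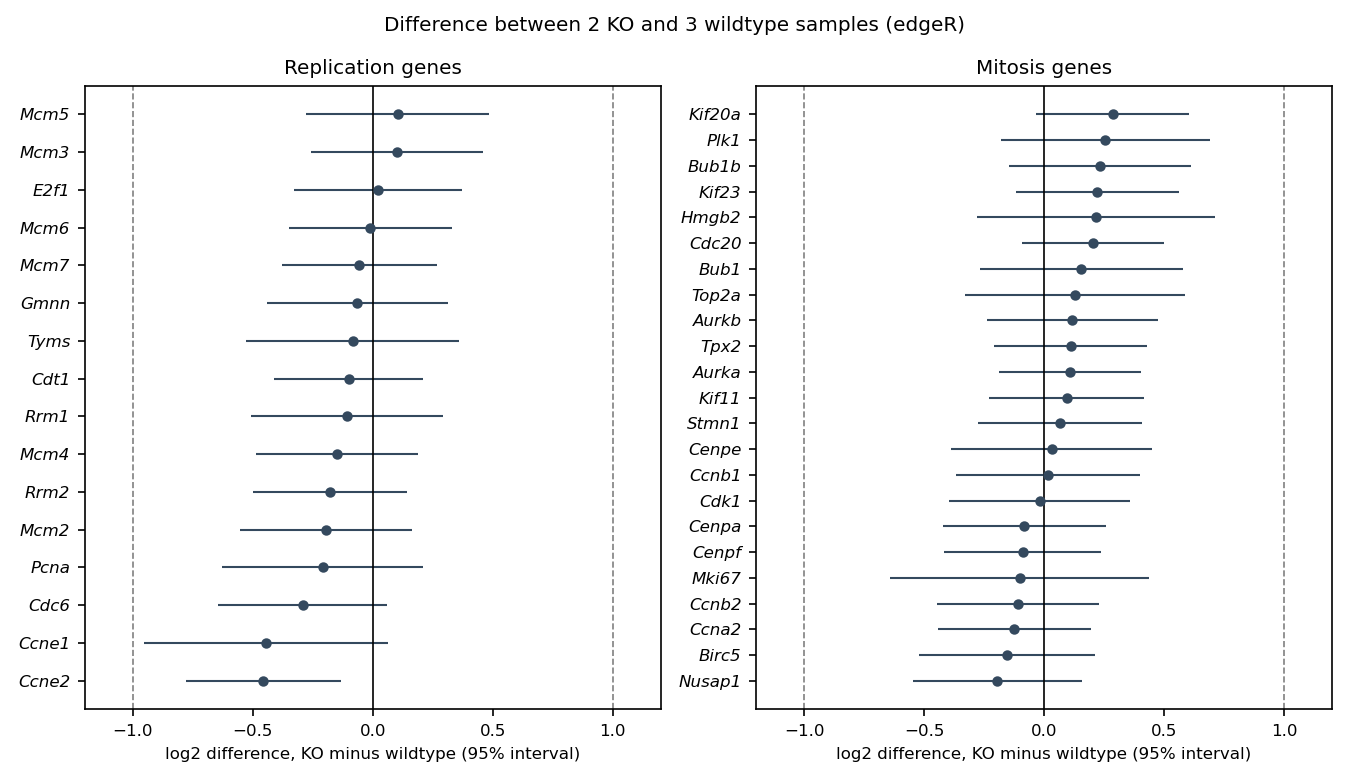
Log2 difference of each gene, KO minus wildtype, with its 95% interval from edgeR (2 KO and 3 wildtype samples), for replication genes (left) and mitosis genes (right). Dashed lines mark a 2-fold change, which no interval reached, and the interval of Ccne2 is the 1 that does not include 0.

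The KO libraries were not alike. KO replicates 2 and 3, which count as 1 sample, lay above the whole wildtype range in FPKM for 13 of the 23 mitosis genes and below it for 3 (Ccnb2, Birc5 and Nusap1), against 30.1% and 25.8% of all tested genes. For the replication genes they were above it for 2 of 16 (Mcm3 and Mcm5) and below it for 5 (Cdc6, Pcna, Rrm2, Ccne1 and Ccne2). KO replicate 1 lay within the wildtype range for 12 of the 23 mitosis genes, against 6247 of all 15373 tested genes. It was above that range for Hmgb2 and below it for the rest. This library was the lowest for 9 of the 23 mitosis genes and for 10 of the 16 replication genes. How often it was the lowest over all tested genes was not counted, so these counts have no background. Taken as the median of each list in log2 TMM-scaled CPM relative to the wildtype mean, the mitosis genes were at -0.03, 0.17 and 0.17 in KO replicates 1 to 3 and at -0.08, -0.04 and 0.13 in wildtype. The replication genes were at -0.11, -0.08 and -0.12 in KO and at -0.15, -0.04 and 0.15 in wildtype. Both groups overlapped in both lists. The gap between the lists, mitosis minus replication, was 0.08, 0.26 and 0.29 in KO, above the wildtype values of 0.06, -0.001 and -0.03, and this was described from these libraries and not tested.

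Leaving KO replicate 1 out left 1 KO sample, the average of replicates 2 and 3, so only effect sizes are given. The median for the mitosis genes was then 0.16, with 16 genes higher and 7 lower in KO. Leaving out KO replicates 2 and 3 instead, which also left 1 KO sample, gave -0.03, with 9 genes higher and 14 lower. The direction of the mitosis list thus rested on KO replicates 2 and 3. The replication list was at -0.10 and -0.11 in these fits. With all 6 libraries entered as labelled, 570 genes of the table (3.71%) had an adjusted p under 0.05 and 3408 (22.2%) an unadjusted p under 0.05. 0 of the 39 genes were called there, and 5 were at the unadjusted level: Cdc6, Ccne1 and Ccne2 lower, Kif20a and Cdc20 higher in KO.

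Markers of several marrow cell types moved with the groups by more than the cell cycle lists did. None of these markers had an adjusted p under 0.05 (edgeR), as 0 genes in the whole table did. At an unadjusted p under 0.05 were 8 of 8 granulocyte precursor, 13 of 13 B cell precursor and 8 of 13 erythroid markers. Of the later neutrophil markers 5 of 9 were at that level, against 13.7% of all tested genes. Granulocyte precursor markers summed to 2075, 2838 and 2805 FPKM in KO and to 1131, 1548 and 1225 FPKM in wildtype, with all 8 markers higher in KO. B cell precursor markers summed to 142.5, 93.3 and 96.7 FPKM in KO and to 329, 314 and 294 FPKM in wildtype, with all 13 lower. Erythroid markers summed to 60970, 25390 and 25130 FPKM in KO and to 72060, 83330 and 109100 FPKM in wildtype, with all 13 lower. Chondrocyte markers summed to 1491, 653 and 661 FPKM in KO and to 624, 867 and 781 FPKM in wildtype, and the groups overlapped. KO replicate 1 was nearer to wildtype than the other KO libraries in the erythroid, granulocyte precursor and B cell precursor sums. It was farther from wildtype than they were in the chondrocyte and later neutrophil sums. Later neutrophil markers summed to 62220, 50260 and 51510 FPKM in KO and to 26770, 43530 and 30610 FPKM in wildtype. All 9 were higher in KO. The part of these cell types in the values of the cell cycle genes was not tested.

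**Figure D4:**
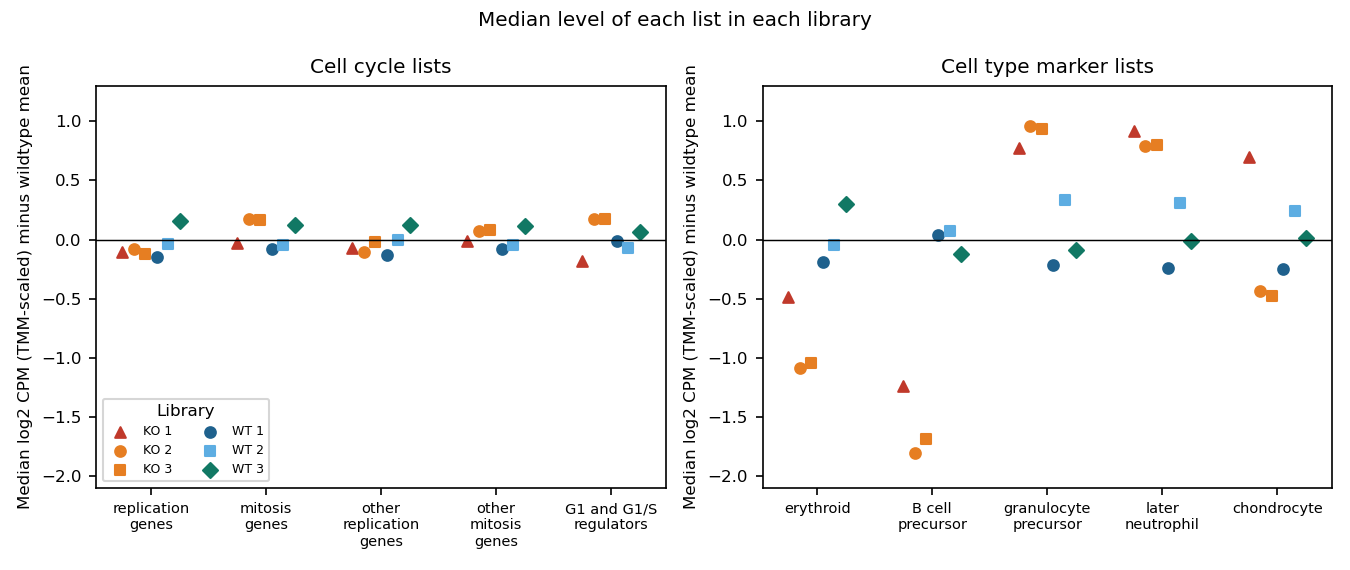
Median over each gene list of log2 TMM-scaled CPM minus the wildtype mean, with 1 point per library, for cell cycle lists (left) and marker lists of cell types (right) on the same scale. Cell cycle lists stayed within -0.18 and 0.18 in all libraries, while B cell precursor markers reached -1.81 and granulocyte precursor markers 0.96 in KO libraries.

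Other genes of the same processes were read in the same way. Of 47 further replication genes, all tested, 16 were higher and 31 lower in KO, with a median log2 difference of -0.11. At an unadjusted p under 0.05 were 2, both lower, which is below the share of 13.7% over all genes. Orc1, a subunit of the origin recognition complex, had 5.44, 4.77 and 5.21 FPKM in KO and 6.56, 6.89 and 7.60 FPKM in wildtype (log2 difference -0.41, SE 0.161, n = 2 and 3, edgeR adjusted p = 0.330). Slbp, which binds histone mRNA in S phase, differed by -0.28 (SE 0.122, edgeR adjusted p = 0.373). In Orc1 and Slbp every KO library was below every wildtype library.

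Of 55 further mitosis genes, 29 were higher and 26 lower, with a median of 0.01, and 2 were at an unadjusted p under 0.05, both lower, against 13.7% of all genes. Cdc25b (chromosome 2, 131186949 to 131198497), the phosphatase that starts CDK1 activation at the entry to mitosis, had 28.8, 30.1 and 28.4 FPKM in KO and 40.5, 37.7 and 45.4 FPKM in wildtype. Its KO libraries were close together and well below all wildtype libraries, with a log2 difference of -0.48 (SE 0.129, n = 2 and 3, edgeR adjusted p = 0.194). With 6 libraries as labelled its adjusted p was 0.0426 (edgeR), and DESeq2 on 5 samples gave 0.0227. Fbxo5, which inhibits the anaphase-promoting complex, differed by -0.30 (SE 0.122, edgeR adjusted p = 0.335) and Kif18a, a kinesin that aligns chromosomes, by -0.35 (SE 0.149, edgeR adjusted p = 0.371).

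Of 21 regulators of G1 and of the entry to S phase, 11 were higher and 10 lower, with a median of 0.05, and 5 were at an unadjusted p under 0.05, 2 higher (Cdc25a and Tfdp1) and 3 lower (Ccnd1, E2f4 and Tfdp2), against 13.7% of all genes. Tfdp2 (chromosome 9, 96196275 to 96323646), a dimer partner of E2F, had 9.94, 8.39 and 8.47 FPKM in KO and 18.3, 12.6 and 16.9 FPKM in wildtype. The groups were apart, with a log2 difference of -0.76 (SE 0.187, n = 2 and 3, edgeR adjusted p = 0.177), and its adjusted p was 0.0399 with 6 libraries as labelled (edgeR) and 0.00807 in DESeq2. Tfdp1, the other common E2F partner, went the other way by 0.36 (SE 0.142, edgeR adjusted p = 0.329). Cdc25a, the CDC25 phosphatase that acts on CDK2 at the G1/S step, had 7.72, 11.0 and 10.6 FPKM in KO and 6.51, 6.84 and 6.01 FPKM in wildtype. All KO libraries were above all wildtype libraries, with a log2 difference of 0.53 (SE 0.154, n = 2 and 3, edgeR adjusted p = 0.216). Ccnd1, cyclin D1, had 3.73, 3.02 and 2.90 FPKM in KO and 7.42, 4.10 and 6.18 FPKM in wildtype, again with no overlap (log2 difference -0.78, SE 0.258, n = 2 and 3, edgeR adjusted p = 0.257). Among these genes the members of a family differed in opposite directions, Cdc25a against Cdc25b and Tfdp1 against Tfdp2, and the differences between them were not tested.

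**Figure D5:**
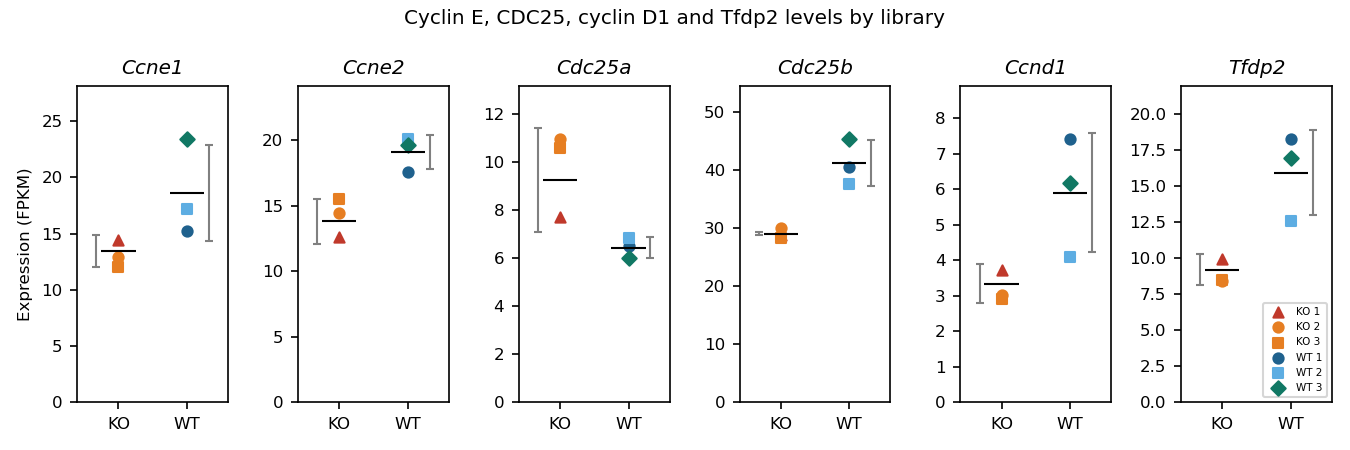
FPKM of Ccne1, Ccne2, Cdc25a, Cdc25b, Ccnd1 and Tfdp2 in each library (axes start at 0), with lines for the group means and grey bars for ± 1 SD over 2 KO samples (replicates 2 and 3 averaged) and 3 wildtype samples. In FPKM the KO libraries lay above all wildtype libraries for Cdc25a and below all of them for the other 5 genes. These genes were among those with the lowest unadjusted p in their lists. In TMM-scaled CPM the groups overlapped for Ccne1. On that scale 13.7% of all tested genes had every KO library above every wildtype library, and 13.0% had them below.

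Transcript length differed in its relation to the libraries. Over 15355 genes, the deviation of a gene from its wildtype mean correlated with transcript length (Spearman) at -0.22, 0.18 and 0.17 in KO replicates 1 to 3 and at 0.29, -0.34 and 0.04 in wildtype, in genes that share libraries. Over the 39 genes the log2 difference between the groups correlated with length at -0.002. Library by library, the deviations of these 39 genes correlated with length at -0.30, 0.17 and 0.17 in KO replicates 1 to 3. In wildtype replicates 1 to 3 they did so at 0.26, -0.36 and 0.12. The signs thus differed within each group, and the part of length in the level of a gene in a single library was not tested. An offset for length, chosen after seeing the data, gave medians of -0.09 for the replication and 0.10 for the mitosis genes. The same offset left the log2 difference of Mki67 at -0.10.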

How the data were processed

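Poly(A) RNA of articular cartilage was sequenced as 150-base paired reads. Per the labels and the submitters' processing notes, cutadapt 1.9, HISAT2 2.0.4, UMI-tools, StringTie 1.3.4d, DESeq2 and edgeR were used. The authors deposited 1 table with an estimated count and an FPKM value per gene and library. Low counts pile up at 4 (6596 values) against 3 (4170) and 5 (2332), so 1 read may not be 1 count. Coordinates match GENCODE M21 (GRCm38) for 31627 of 34607 genes matched by identifier. Values of some genes, the knocked-out gene among them, are not reported here.

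Deposited counts, rounded, were tested with edgeR 4.0.16 (quasi-likelihood F test, TMM scaling, R 4.3.3) on 2 KO and 3 wildtype samples, after averaging KO replicates 2 and 3, for genes that averaged 0.5 FPKM or more. P-values were adjusted by Benjamini-Hochberg over 15373 genes with a threshold of 0.05. An SE was the log2 difference divided by the root of F. The procedure was also run on simulated counts with known changes, drawn with a common dispersion for all genes. The means ± SD in the plots are over samples. Limma 3.58.1, on log2(FPKM + 1) and log2(FPKM + 0.1), DESeq2 1.42.0 and 14 further alternatives were tried. Library floors of 3 counts, 0.0474 to 0.0574 CPM, cover counting error only and were far below every gene here.

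The genes and lists were chosen with earlier results of these data known. Full values were given for Mki67, for the 5 genes of each list with the lowest unadjusted p, and for up to 3 of each further list. E2f4, Tfdp1 and the single marker genes fall outside this rule and were picked with their values in view. The replicate numbers did not pair the samples: deviations of same-numbered libraries correlated at -0.145, -0.108 and -0.058. Promoter windows came from a RefSeq table (GRCm38.p6).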

Additional observations from a re-analysis of the deposited data

How the results depend on the processing

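Of the 17 alternatives, those that kept at least 2 KO samples called none of the 39 genes. Many of these, limma and the length offset among them, called 0 genes in the whole table, so they could call none of the 39. The number of genes in the whole table with an adjusted p under 0.05 rose from 0 to 570 with 6 libraries as labelled, to 880 in DESeq2, to 21 with no filter and to 9 without KO replicates 2 and 3 together, and it ranged from 0 (3 of the fits that left out 1 library) to 352 (without KO replicate 1). With an unadjusted p under 0.05 there were 3408 genes with 6 libraries as labelled, 1291 at a minimum of 5 FPKM, and 1384 to 3186 when 1 library was left out. The cause was not tested. Cdc25b and Tfdp2 were called with 6 libraries as labelled and in DESeq2. With the replicate number as a block on 6 libraries, 0 genes were called and 2809 had an unadjusted p under 0.05, and Cdc25b (adjusted p = 0.136) and Tfdp2 (adjusted p = 0.0894) were no longer called by edgeR. It changed no other call of the genes described here. The numbers did not pair the samples.

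When 1 library was left out, the median log2 difference ranged from -0.18 to -0.02 for the replication genes (without wildtype replicates 1 and 3) and from 0.07 to 0.16 for the mitosis genes. Without KO replicates 2 and 3 together the median of the G1 and G1/S regulators moved from 0.05 to -0.18. Of the 39 genes, 18 kept their sign in every alternative and 21 changed it in at least 1, among them Plk1, Bub1 and Top2a without KO replicates 2 and 3 together. When 1 library was left out, the log2 difference ranged as follows for genes that changed sign: Gmnn from -0.20 to 0.0066, Mcm6 from -0.067 to 0.091, Mcm7 from -0.11 to 0.036, Rrm1 from -0.19 to 0.026, Tyms from -0.25 to 0.019, E2f1 from -0.023 to 0.13, Mki67 from -0.23 to 0.054, Cdk1 from -0.13 to 0.058, Ccnb1 from -0.076 to 0.16, Cenpe from -0.069 to 0.24, Cenpf from -0.14 to 0.042 and Stmn1 from -0.022 to 0.14. Without KO replicates 2 and 3 together it was 0.068 for Gmnn, -0.085 for Mcm3, -0.031 for Mcm5, 0.073 for Tyms, -0.051 for E2f1, -0.13 for Top2a, 0.080 for Cdk1, -0.14 for Ccnb1, 0.0037 for Ccnb2, -0.16 for Bub1, -0.21 for Cenpe, -0.077 for Aurkb, -0.0093 for Plk1, -0.019 for Kif11 and -0.026 for Tpx2. For Mcm6 it was 0.0041 with the replicate block, 0.0013 in DESeq2, 0.0012 with median-of-ratios scaling and 0.0031 with the length offset. With no filter it was 0.027 for Mcm6 and 0.014 for Cdk1, and at a minimum of 5 FPKM -0.023 for E2f1, -0.030 for Ccnb1 and -0.019 for Cenpe. In limma it was -0.0033 for Ccnb1 with a pseudocount of 1 FPKM and -0.0036 with 0.1 FPKM.

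With 2 and 3 samples the median 95% interval reached 0.35 on the log2 scale to either side, unadjusted for the number of genes. Each of the 39 genes had at least 1687 counts per library.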
